A study of Mus musculus with 27 samples.

Results

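Small RNA of the soluble nucleoplasm was compared with small RNA of the cytoplasm in mouse embryonic stem cells (mESC). The comparison took in all 1013 annotated small RNAs of the deposited table, here called entries, in 6 of its 27 libraries: 3 of mESC nucleoplasm and 3 of mESC cytoplasm. The cells were the E14 line, unmodified as far as the labels say, grown with LIF on 0.1% gelatin, so all 6 libraries stand for a single line. Both fractions were purified to RNA under 200 nt and depleted of ribosomal RNA before small RNA libraries were made, with Trizol LE for the cytoplasm and Trizol for the nucleoplasm. Fraction and extraction reagent cannot be told apart in this design. The labels describe the libraries of a fraction as biological triplicates and name no separate cultures. Each p-value therefore reflects at most how far these libraries spread, part of which may be technical. By its title, the study followed RNA maturation across subcellular fractions as stem cells become neurons. Neural progenitors (mNPC, a line grown with EGF and FGF) and primary cortical neurons (mCtx, 5 days in culture) are used only to show where mESC differed from them.

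The classes measured here have known places in the cell. Small nucleolar RNAs (snoRNAs) are cut from introns of host genes and guide the chemical modification of ribosomal RNA, the C/D box type guiding methylation and the H/ACA box type pseudouridylation. Small nuclear RNAs (snRNAs) form the core of the spliceosome and visit the cytoplasm for assembly, transfer RNAs (tRNAs) are made in the nucleus and work in the cytoplasm, and microRNA (miRNA) hairpins are cut in the nucleus and then diced in the cytoplasm into a duplex of which usually a single arm is kept to repress mRNAs.

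The RNAs on which the results turn are shown here with their sequences, 5′ to 3′, from RefSeq and GENCODE for the GRCm38 mouse genome. The mature miRNAs have the seed (bases 2 to 8, which pair with targets) in capitals. Each of 4 less abundant arms is followed by the abundant arm of the same hairpin, because the arms behaved differently. miR-20b-5p was listed in a single fraction, and miR-295-3p had the highest level in the stem cell cluster. The miR-25 and miR-92a abundant arms share the seed AUUGCAC, while their other arms do not share a seed.
mmu-miR-92a-1-5p: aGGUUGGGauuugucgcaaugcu
mmu-miR-92a-3p: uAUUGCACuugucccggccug
mmu-miR-25-5p: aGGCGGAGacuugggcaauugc
mmu-miR-25-3p: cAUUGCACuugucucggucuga
mmu-miR-27b-5p: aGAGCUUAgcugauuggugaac
mmu-miR-27b-3p: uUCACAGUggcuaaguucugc
mmu-miR-148a-5p: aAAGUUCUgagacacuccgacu
mmu-miR-148a-3p: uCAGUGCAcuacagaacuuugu
mmu-miR-20b-5p: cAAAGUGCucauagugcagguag
mmu-miR-295-3p: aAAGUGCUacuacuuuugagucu
The miR-21a hairpin is given with both mature arms in capitals, because its reads were listed under the hairpin in one fraction and under an arm in the other.
mmu-mir-21a: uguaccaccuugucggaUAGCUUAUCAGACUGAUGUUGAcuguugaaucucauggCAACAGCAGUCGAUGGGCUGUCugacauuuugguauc
For the snoRNAs, the letters TGATG near the start and CTGA near the end, the core of boxes C and D, are in capitals. Gm24494 lies at chr3:153911610-153911690 on the minus strand, in an intron of Rabggtb. Snord69 lies at chr14:31014287-31014366 on the minus strand, within Gnl3.
Gm24494: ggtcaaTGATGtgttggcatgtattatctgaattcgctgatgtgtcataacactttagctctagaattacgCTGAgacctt
Snord69: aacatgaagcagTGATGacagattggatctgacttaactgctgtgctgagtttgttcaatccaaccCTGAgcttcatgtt
Rnu7, the U7 RNA that directs the cutting of histone mRNA ends, lies at chr6:124741225-124741286 on the minus strand, and the letters AATTTGTC, at its Sm protein binding site, are in capitals.
Rnu7: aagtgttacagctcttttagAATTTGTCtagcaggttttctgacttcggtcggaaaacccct

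Values are in RPM, read numbers scaled to library size by the authors, so they are relative levels within a library and give no amount per cell. In such shares, more of an RNA and less of all other RNA cannot be told apart. In each library there was a lowest value above 0, and lower values were listed as 0. This lowest value was 15.7, 27.1 and 20.8 RPM in the nucleoplasm libraries and 27.6, 42.4 and 31.5 RPM in the cytoplasm libraries. Between 54.2% and 62.4% of the low values of a library were whole multiples, within 0.02, of a step of which the lowest value held 10 (10.564 in nucleoplasm replicate 3). If that step is 1 read, the libraries were scaled from 637414, 368594 and 508342 reads in nucleoplasm and from 362969, 235584 and 317630 in cytoplasm. The other values were not whole, so counts were not recovered. The search for the step was limited in advance to a narrow range that began at 10, so these read totals follow from that range. To compare the fractions on the same terms, every value under 42.4 RPM, the highest of the 6 lowest values, was set to it, and the 446 entries above this common floor in at least 3 of the 6 libraries were tested. A value under the floor is not read as absence, and a log2 difference for an entry at the floor in a whole fraction is a bound set by the floor. In such an entry the floored fraction has no spread left, so the p-value may understate how far that fraction varied.

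Nucleoplasm replicate 1 stood apart. Across entries on the log scale its correlation with the other nucleoplasm libraries was 0.888 and 0.904, against 0.955 between those, and it listed 615 entries above 0 where the others listed 493 and 530. The main results that lean on it are given with the value without it. The cells carried the marks of embryonic stem cells: the 15 entries of the miR-290 to miR-295 cluster, the main miRNA cluster of mouse embryonic stem cells, were all listed and summed to between 72932 and 93945 RPM. The 2 entries of the miR-302 and miR-367 cluster, which marks primed cells, summed to at most 97.7 RPM. Of the entries marking other cells, 8 neuronal, 3 of neural progenitors, 4 of microglia and blood and 5 of endothelium and mesenchyme were tested, and none of these was called. The 24 neuronal entries (13 listed) summed to 1318 to 1706 RPM in nucleoplasm and 1174 to 1570 in cytoplasm, the 12 of neural progenitors (6 listed) to 545 to 730 and 551 to 752, the 4 of microglia and blood (all listed) to 2805 to 3302 and 3309 to 4016, without overlap, and the 10 of endothelium and mesenchyme (8 listed) to 5397 to 7561 and 5952 to 7831. The 3 glial entries were at 0 in all 6 libraries. Gene copies count more than once in these numbers. The 3 progenitor entries tested were copies of miR-9-5p with nearly the same values, and they are also among the 8 neuronal entries. miR-128-3p, miR-138-5p and miR-124-3p are repeated in the neuronal list in the same way.

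Between nucleoplasm and cytoplasm, 76 of the 446 entries tested differed (17% of those tested, limma, Benjamini-Hochberg adjusted p under 0.05), 53 higher in nucleoplasm (11.9%) and 23 lower (5.16%). snoRNAs made up 41 of the 53 higher entries, and snRNAs 7. The lower entries were 10 miRNAs, 8 tRNAs, 4 rRNAs and 1 snoRNA. The median log2 difference over all entries tested was 0.02, and in 86 entries (19.3%) the 3 nucleoplasm libraries all lay above the 3 cytoplasm libraries, in 55 (12.3%) all below. Of the higher entries, 29 lay at or under the floor in all 3 cytoplasm libraries, and of the lower entries 9 in all 3 nucleoplasm libraries. Refitted on the 298 entries above the floor in all 6 libraries, 13 passed (4.36%), 10 higher and 3 lower. The count of calls depended most on cytoplasm replicate 2, without which 39 entries passed, 28 higher and 11 lower. Without nucleoplasm replicate 2, 52 passed, 11 of them lower, and without nucleoplasm replicate 1, 68 passed, 14 of them lower. Leaving out each library in turn, 37 entries passed every time, 27 higher and 10 lower.

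**Figure D1:**
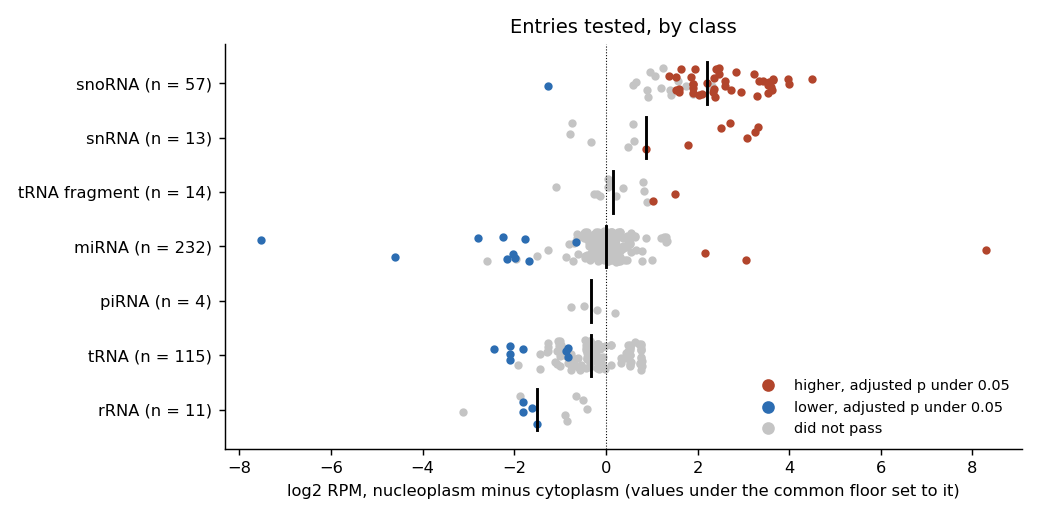
Log2 RPM, nucleoplasm minus cytoplasm, of the 446 entries tested in mESC, by class (rows), with each class's median as a black bar; colour shows the entries higher or lower at adjusted p under 0.05. snoRNAs lie to the right with a median of 2.22 and rRNAs to the left with a median of -1.49, while miRNAs centre on 0.01.

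The share of each class in the listed reads showed the same contrast. snoRNAs took 6.30%, 3.27% and 2.75% of the listed reads in the nucleoplasm libraries and 0.55%, 0.28% and 0.34% in the cytoplasm libraries. The fractions did not overlap, and the mean was 10.5 times higher in nucleoplasm (4.11% ± 1.92 against 0.391% ± 0.141, SD, n = 3 each). Without nucleoplasm replicate 1 the snoRNA difference was 2.62 percentage points instead of 3.72. snRNAs took 0.749%, 0.831% and 1.03% of nucleoplasm reads and 0.233%, 0.150% and 0.221% of cytoplasm reads, a mean 4.31 times higher. rRNA went the other way, with 0.467%, 0.745% and 1.97% of nucleoplasm reads against 2.24%, 3.54% and 3.09% of cytoplasm reads. The nucleoplasm libraries spread widely for rRNA, replicate 3 lying close to the lowest cytoplasm library. The libraries had been depleted of ribosomal RNA, and whether the depletion was equal in both fractions was not tested.

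The share of miRNA did not separate the fractions: 81.9%, 78.7% and 81.8% in nucleoplasm against 78.3%, 82.8% and 86.9% in cytoplasm. tRNA took 9.89%, 15.6% and 11.5% against 18.1%, 12.3% and 8.53%, with overlap. piRNA and tRNA fragments overlapped too, although the tRNA fragment share was higher in nucleoplasm within each replicate number (0.168% against 0.145%, 0.387% against 0.302%, and 0.644% against 0.452%). Of the 10 classes compared, 6 did not overlap (60%): snoRNA, snRNA and rRNA, and the C/D box, H/ACA box and scaRNA groups by name, which lie within snoRNA. The scaRNA share rests on Scarna9 alone, 2 of whose 3 nucleoplasm values lie under the common floor, and is not read further. Each of these had an exact two-sided permutation p of 0.1, the smallest that 3 against 3 libraries can give, and 0.167 after adjustment over the 10 classes, so no class share could pass 0.05.

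**Figure D2:**
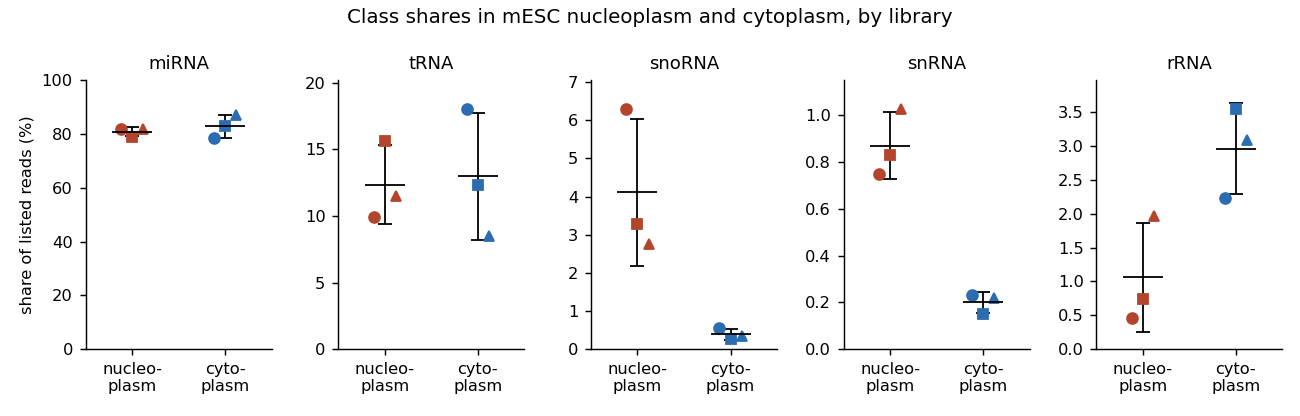
Share of listed reads (percent, axes from 0) of 5 classes in each mESC library; circles, squares and triangles are replicates 1, 2 and 3, and black bars give the mean and SD. snoRNA and snRNA shares are higher in all 3 nucleoplasm libraries, rRNA is lower in all 3, and miRNA and tRNA overlap.

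Among snoRNAs, 57 of 239 entries passed the filter, with a median log2 difference of 2.22 beside 0.02 over all entries. Of these, 41 rose in nucleoplasm (71.9%, beside 11.9% of all entries tested), 1 fell and 15 did not pass the test. All 15 that did not pass had positive differences. The filter keeps an entry that is high in a single fraction, so these counts do not describe all 239. Only 10 snoRNAs lay above the floor in all 6 libraries, and in the same fit 8 of these 10 rose. Refitted on the entries above the floor in all 6 libraries alone, 5 of the 10 did. The count of 41 fell to 19 without cytoplasm replicate 2 and to 27 without cytoplasm replicate 3; 18 snoRNAs passed whichever library was left out.

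The snoRNA with the highest mean RPM was Snord69, with 4024, 2957 and 2152 RPM in nucleoplasm and 402, 407 and 428 RPM in cytoplasm. It was 7.15-fold higher in nucleoplasm (log2 difference 2.84, SE 0.28, limma adjusted p 0.000618). The cytoplasm libraries lay within a narrow band, and every nucleoplasm library lay well above it. Gm22680, encoded in Snhg1, a host gene that carries a series of C/D box snoRNAs, had 4132, 2326 and 1833 RPM in nucleoplasm against 209, 208 and 222 in cytoplasm (log2 difference 3.61, SE 0.34, adjusted p 0.000572). Snord99, within Snhg12, had 3963, 2135 and 1637 RPM against 234, 242 and 239 (3.33, SE 0.36, adjusted p 0.000758). In a fit over all 27 libraries the adjusted p of Gm22680 and Snord99 was 0.0551 and 0.113. Snord49a, within 2410006H16Rik, had 4112, 1456 and 1318 RPM against 846, 454 and 388 (1.91, SE 0.51, adjusted p 0.0411). Its call was lost without any of 5 libraries, at adjusted p from 0.056 (nucleoplasm replicate 3) to 0.194 (cytoplasm replicate 2), with 0.0846, 0.0749 and 0.106 without nucleoplasm replicates 1 and 2 and cytoplasm replicate 3.

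The largest fitted differences were in snoRNAs that the cytoplasm libraries hardly listed. Gm24494, the Rabggtb intron RNA shown above, was at 1298, 889 and 750 RPM in nucleoplasm and listed at 0 in all 3 cytoplasm libraries (adjusted p 0.000123). Gm22455, within Rpl4, was at 762, 461 and 420 RPM and likewise listed at 0 in cytoplasm (adjusted p 0.000486). Both kept their call under every alternative in which they were tested. Snord60, within Rab26os, was at 1318, 659 and 569 RPM against 0, 0 and 69.3, and Snord52, within 1110038B12Rik, at 1580, 971 and 735 RPM against 77.1, 0 and 85.0 (adjusted p 0.000643 each). Gm26224, within Gas5, was at 872, 548 and 496 RPM against 60.6, 46.7 and 0 (adjusted p 0.000514). Gm23246, within Snhg1, was at 2043, 1187 and 862 RPM against 259, 0 and 99.2 (adjusted p 0.00912), and was not called without nucleoplasm replicate 1 (adjusted p 0.062). With values as listed and a pseudocount of 1, where a lone 0 weighs heavily, Snord52, Gm26224 and Gm23246 had adjusted p of 0.106, 0.096 and 0.176. With mESC chromatin in the fit as well, Snord60 and Gm23246 had 0.293 and 0.323.

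Host genes with more than 1 snoRNA tested are given as counts, and differences between them were not tested. All 3 tested in each of Gas5, Snhg12 and 2410006H16Rik rose, and both tested in each of Rabggtb, Hspa8 and Prrc2b. In Rack1 1 of 3 rose and in Eif4a2 0 of 2, while 71.9% of all snoRNAs tested rose. The members that did not pass were positive too, with log2 differences of 1.90 and 1.58 in Rack1 and 1.41 and 0.90 in Eif4a2. The called Snord14e of Hspa8 had 1.54. Without cytoplasm replicate 2 neither Hspa8 snoRNA (adjusted p 0.0531 for Snord14c and 0.118 for Snord14e) nor either Prrc2b snoRNA (0.0773 for Gm22192 and 0.0781 for Gm25632) passed, and Snord14e was also lost without cytoplasm replicate 1 (0.0688), cytoplasm replicate 3 (0.0741) or nucleoplasm replicate 3 (0.0516). Gas5 and Snhg12 are host genes of non-coding RNA; Hspa8 and Rabggtb code for proteins. The Gas5 member Gm23212 rose by 1.90 on the log2 scale (adjusted p 0.0481) from unsteady values, 693, 616 and 230 RPM against 154, 72.2 and 168; it was not called without nucleoplasm replicate 1, nucleoplasm replicate 2, cytoplasm replicate 1, cytoplasm replicate 2 or cytoplasm replicate 3 (adjusted p 0.18, 0.171, 0.0772, 0.215 and 0.0661) or with the replicate number as a block (0.1). The 2 Prrc2b snoRNAs, Gm22192 and Gm25632, are identical in sequence, and so are Snord50b of Snhg5 and Gm26135, which had the same values in every library; each such pair may share its reads. Snhg1 differed within itself. Of its 6 snoRNAs tested 3 rose, 2 did not pass, and Gm25855 was the only snoRNA of the 57 that fell. Gm25855 was listed at 0 in all 3 nucleoplasm libraries and at 99.2, 84.9 and 127.5 RPM in cytoplasm (adjusted p 0.0151). Its call was lost without nucleoplasm replicate 2 (adjusted p 0.0749), without nucleoplasm replicate 3 (0.0503), and without a filter on low values (0.175). It was listed at 0 in all 3 chromatin libraries too.

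By name, 18 of 25 C/D box snoRNAs tested rose (72%), with a median log2 difference of 2.25. Of 5 H/ACA box snoRNAs 4 rose (80%), with a median of 2.35, beside 71.9% of all snoRNAs tested. By sequence, 148 of all 239 snoRNA entries (61.9%) held TGATG in the first 20 bases and CTGA in the last 20. Of the 42 of these that were tested, 32 rose (76.2%) and 1 fell. The letters ACA stand before the last 3 bases in 49 of 239 (20.5%). Among the 45 of these without the C and D letters, 5 were tested and 3 rose. Of the 10 tested snoRNAs with neither, 6 rose. Snora52 of Rplp2 was at 358, 152 and 187 RPM in nucleoplasm and listed at 0 in cytoplasm (adjusted p 0.00626), and Snora44 of Snhg12 at 351.4, 181.8 and 166.2 RPM and 0 (adjusted p 0.00536). Few H/ACA box snoRNAs passed the filter, so their count rests on 5 entries. Differences between the box types were not tested.

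Chromatin was the richer fraction for most of these RNAs. Of the 41 snoRNAs that rose in nucleoplasm, 38 (92.7%) had a higher mean in mESC chromatin than in nucleoplasm, beside 28.3% of all entries tested. In 31 every chromatin library lay above every nucleoplasm library (75.6%, beside 16.6% of all entries tested). Most tested snoRNAs that did not rise also had a higher mean in chromatin, so this was not particular to those that rose. Among tested entries that are not snoRNAs, 19.8% had a higher mean in chromatin. Some chromatin means rest on 1 library, such as Snord60 at 0, 16463 and 0 RPM and Snord99 at 0, 0 and 37541. The exceptions among the 41 that rose were Rnu3a, Gm22680 and Gm24357, all listed at 0 in the 3 chromatin libraries. Rnu3a, the U3 RNA needed for the first cuts of the ribosomal precursor, was at 568, 285 and 445 RPM in nucleoplasm and listed at 0 in all 3 cytoplasm libraries (adjusted p 0.000643), and kept its call under every alternative in which it was tested. A list of Rnu7, Rnu3a, Rnu73b and Snord13 had 3 of 4 members higher, beside 71.9% of all snoRNAs tested and 53.8% of all snRNAs tested. Rnu73b was at 139, 159 and 94.4 RPM against 0 (adjusted p 0.0103, and 0.0634 without cytoplasm replicate 2). Snord13, a snoRNA used in ribosomal RNA acetylation, was at 485, 216 and 0 RPM against 125.4, 108.2 and 96.02 and did not pass (adjusted p 0.775). The 2 scaRNA entries, guides for snRNA modification, did not reach the filter; Scarna9 was at 97.3, 37.98 and 23.6 RPM in nucleoplasm and listed at 0 in cytoplasm.

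**Figure D3:**
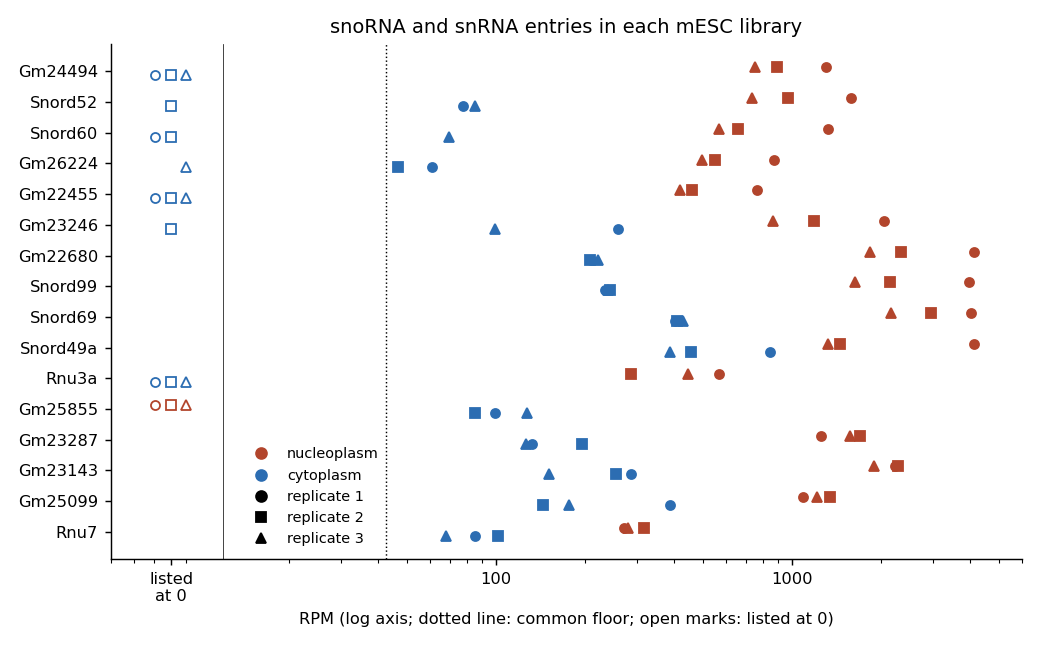
RPM (log axis) of 16 snoRNA and snRNA entries in the 3 nucleoplasm and 3 cytoplasm mESC libraries; symbols mark replicates, the dotted line is the common floor of 42.4 RPM, and open marks at the left are values listed at 0. Gm25855 is the only entry shown whose cytoplasm values lie above its nucleoplasm values.

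Among snRNAs, 13 of 27 entries were tested, with a median log2 difference of 0.87. In nucleoplasm 7 rose (53.8%, beside 11.9% of all entries tested) and none fell. The 3 with the highest levels were predicted genes close to U5. Gm23143 had 2222, 2276 and 1888 RPM in nucleoplasm and 286.5, 254.7 and 151.1 RPM in cytoplasm, a 9.53-fold difference (log2 3.25, SE 0.32, adjusted p 0.000618). Gm23287, 95.7% identical to the U5 spliceosomal RNA gene Rnu5g, had 1248, 1692 and 1565 RPM against 132.2, 195.3 and 125.9, a 10.1-fold difference (log2 3.33, SE 0.30, adjusted p 0.000486). Gm25099, 94.0% identical to Rnu5g, had 1088, 1346 and 1218 RPM against 385.7, 144.3 and 176.3 (log2 2.50, adjusted p 0.00569), and 0.203 in the fit of all 27 libraries. For all 3 the fractions were far apart in every library.

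Other U5 entries did not pass. Rnu5g itself was listed at 0, 0 and 546 RPM in nucleoplasm, against 219.9, 157.1 and 144.8 in cytoplasm (adjusted p 0.751). Gm25313, 97.4% identical to it, was at 0, 0 and 190 RPM against 140.5, 90.6 and 124.4 (adjusted p 0.582). These genes are near copies, so reads of U5 could be counted under any of them, and a value for a single copy is uncertain. The U2-like entries Gm26316 and Gm22973, 99.5% and 95.3% identical to Rnu2-10, had 516, 523 and 481 RPM against 120, 0 and 0 (adjusted p 0.00345) and 294.2, 335.1 and 394.8 RPM against 41.3, 65.8 and 50.4 (adjusted p 0.000922). Gm25360, also U2-like, did not pass. With values as listed, Gm26316 had an adjusted p of 0.0891.

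Rnu7, which overlaps an annotated exon of Grcc10, had 271, 316 and 278 RPM in nucleoplasm and 84.7, 102 and 67.7 RPM in cytoplasm. Its level was 3.44-fold higher in nucleoplasm (log2 1.78, SE 0.29, adjusted p 0.00581), with no overlap. Rnu12, the U12 RNA of the minor spliceosome, was at 128.4, 126.2 and 134.8 RPM in nucleoplasm and 99.2, 57.3 and 105.5 RPM in cytoplasm. The fractions did not overlap, but the difference did not pass (log2 0.62, SE 0.35, adjusted p 0.334). The seventh entry, Gm22710, was at 81.6, 78.7 and 72.8 RPM against 0 (adjusted p 0.0274). It lost the call without cytoplasm replicates 1, 2 or 3 (adjusted p 0.0587, 0.0888 and 0.0759) and without nucleoplasm replicates 2 or 3 (0.096 and 0.0503).

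Few miRNAs passed the test. Of 483 entries, 232 were tested, with a median log2 difference of 0.01. Of these 3 rose (1.29%) and 10 fell (4.31%), beside 11.9% and 5.16% of all entries tested, and the rest did not pass. In 19 the nucleoplasm libraries all lay above the cytoplasm libraries, in 18 all below, beside 86 and 55 of all 446 entries tested. The balance of calls depended on the processing: with hairpin and arms summed 5 were higher and 2 lower, and with all 27 libraries in the fit 15 and 17. miR-182-5p, with the highest RPM, had 176308, 141134 and 166933 RPM in nucleoplasm and 171596, 150140 and 183778 in cytoplasm (log2 -0.06, SE 0.12, adjusted p 0.859). miR-22-3p had 63390, 57673 and 60078 RPM against 54881, 49235 and 61084 (log2 0.14, SE 0.11, adjusted p 0.569). miR-127-3p and miR-541-5p, from the imprinted Dlk1-Dio3 domain, had log2 differences of -0.10 and -0.07 (SE 0.23 and 0.24). For each of these 4 the values of the fractions overlapped.

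In the stem cell cluster, miR-295-3p had 35511, 27293 and 34408 RPM in nucleoplasm and 25104, 22417 and 31121 in cytoplasm (log2 0.31, SE 0.17, adjusted p 0.31), and miR-293-5p 15539, 14367 and 17602 against 16981, 18673 and 22958 (log2 -0.30, SE 0.16, adjusted p 0.308). Of 13 cluster entries tested none rose and 2 fell (15.4%, beside 4.31% of all miRNAs tested). miR-292a-3p had 6675, 7716 and 9374 RPM against 10756, 13337 and 12952 (log2 -0.65, SE 0.18, adjusted p 0.0457), and its call was lost without any of 5 libraries (adjusted p 0.0507 without cytoplasm replicate 1, 0.208 without cytoplasm replicate 2, 0.121 without cytoplasm replicate 3, 0.11 and 0.131 without nucleoplasm replicates 1 and 2). miR-294-3p, which shares its seed AAGUGCU with miR-295-3p and miR-291a-3p, had 1840, 720 and 679 RPM against 438, 335 and 384 and did not pass (log2 1.33, SE 0.43, adjusted p 0.0856). miR-293-3p was listed at 0 in nucleoplasm replicate 1, and at 12423 and 12537 RPM in the other nucleoplasm libraries. Of the 6 libraries, that replicate alone listed the mir-293 hairpin, at 9797 RPM, and the mir-291a hairpin, at 487 RPM. The let-7 and miR-98 entries (10 tested), those of miR-15, miR-16 and miR-195 (5) and those of miR-183, miR-96 and miR-182 (4) had no calls, with medians of 0.11, -0.04 and -0.15.

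miR-21a was the only miRNA with entries called in opposite directions. Its hairpin was at 14103, 13404 and 12669 RPM in nucleoplasm and listed at 0 in all 3 cytoplasm libraries, while miR-21a-5p was listed at 0 in all 3 nucleoplasm libraries and at 7075, 6847 and 9842 RPM in cytoplasm (adjusted p 7.34e-07 and 2.23e-06). The hairpin entry spans the arm entry, and the table does not say how a read that fits both was assigned. Summed over hairpin and arms, miR-21a had 13455 ± 759 RPM in nucleoplasm and 8004 ± 1710 in cytoplasm (SD, n = 3 each), higher in nucleoplasm by 0.77 on the log2 scale (SE 0.18, adjusted p 0.0217 over the 397 summed entries, of which 17.1% were called). The separate entries therefore give no measure of precursor against mature RNA. In chromatin the hairpin was at 2364, 2765 and 0 RPM and miR-21a-5p at 0 in all 3.

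miR-20b-5p, of an X-linked paralog of the miR-17/92 cluster, was listed at 0 in all 3 nucleoplasm libraries and at 1143, 1218 and 797 RPM in cytoplasm (adjusted p 8.79e-05). Its other arm, miR-20b-3p, was at 75.3, 141.1 and 74.8 RPM in nucleoplasm and 68.9, 0 and 85.0 in cytoplasm and did not pass (adjusted p 0.492). Summed over the arms, miR-20b was lower in nucleoplasm by 3.56 on the log2 scale (97.0 ± 38.1 against 1104 ± 193 RPM, SE 0.37, adjusted p 0.000761). Relatives with similar sequences were listed in both fractions: miR-20a-5p at 1548, 1232 and 952 RPM against 1022, 1138 and 985, miR-106a-5p at 927, 1156 and 730 against 840, 1367 and 850, and miR-17-5p at 1422, 1601 and 1310 against 1843, 2084 and 1706. Of 22 tested entries of miR-17/92 and its paralogs, none rose and 3 fell (13.6%, beside 4.31% of all miRNAs tested).

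The other miRNA calls were mainly on the less abundant arm of a hairpin. miR-92a-1-5p had 345, 746 and 917 RPM in nucleoplasm and 3637, 4474 and 4748 in cytoplasm (log2 -2.78, SE 0.38, adjusted p 0.00251). Its partner miR-92a-3p had 18600, 13683 and 13532 RPM against 21090, 17119 and 14479 (log2 -0.20, SE 0.20, adjusted p 0.652). The less abundant arm thus stood at 1.86%, 5.45% and 6.77% of the abundant arm in the nucleoplasm libraries and at 17.2%, 26.1% and 32.8% in the cytoplasm libraries. The same ratio for miR-25 was 0.395%, 0.630% and 0.621% in nucleoplasm against 1.95%, 2.40% and 2.88% in cytoplasm; miR-25-5p had 25.1, 35.3 and 45.2 RPM against 201, 187 and 233 (adjusted p 0.00194). For miR-27b it was 0.249%, 0.619% and 0.422% against 1.499%, 1.80% and 1.81%, with miR-27b-5p at 42.4, 78.7 and 47.2 RPM against 259, 229 and 239 (adjusted p 0.00536). For miR-148a it was 0.677%, 0.975% and 1.28% against 3.16%, 2.69% and 3.89%, with miR-148a-5p at 118, 147 and 171 RPM against 532, 348 and 519 (adjusted p 0.00895). In each of these 4, which were named for their calls, the ratio did not overlap between the fractions. Over all 37 pairs it was lower in nucleoplasm without overlap in 11 and higher without overlap in 4. miR-290a-3p and miR-27a-5p fell too (adjusted p 0.0207 and 0.0285), but without cytoplasm replicate 2 had adjusted p of 0.116 and 0.126, without cytoplasm replicate 3 of 0.0709 and 0.0598, without nucleoplasm replicate 1 of 0.0846 and 0.103, without nucleoplasm replicate 2 of 0.0796 and 0.0972, and with values as listed of 0.247 and 0.222; miR-27a-5p was also not called without nucleoplasm replicate 3 (0.0652).

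The pattern did not extend to all arms. Both arms were tested for 37 hairpins of the 122 with both arms in the table. The less abundant arm fell in 6, rose in none, and had a median log2 difference of -0.21. The abundant arm fell in 3 (miR-21a-5p, miR-20b-5p and miR-292a-3p), rose in none, and had a median of -0.06. Over all entries tested 5.16% fell. The fall of miR-21a-5p gives no measure of the miRNA, because its hairpin was listed in nucleoplasm. Summed over hairpin and arms, miR-21a was higher in nucleoplasm by 0.77 on the log2 scale. In the 26 where the less abundant arm had under 25% of the level of the other, a limit set after the values were seen, the medians were -0.34 and 0.03. Arms such as miR-17-3p (log2 0.64) and miR-431-3p (log2 0.48) were not lower in nucleoplasm. With hairpin and arms summed, these calls were lost, since the abundant arm carries the sum, and 5 of the 13 called miRNA entries kept a call in the direction of their own entry: mir-21a, miR-20b-5p, miR-30c-1-3p, miR-5099 and miR-6539. Without cytoplasm replicate 2 or without nucleoplasm replicate 1, 6 miRNA entries were lower instead of 10. The entry miR-30c-1-3p lost its call without either of these libraries (limma adjusted p 0.0770 and 0.0520).

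**Figure D4:**
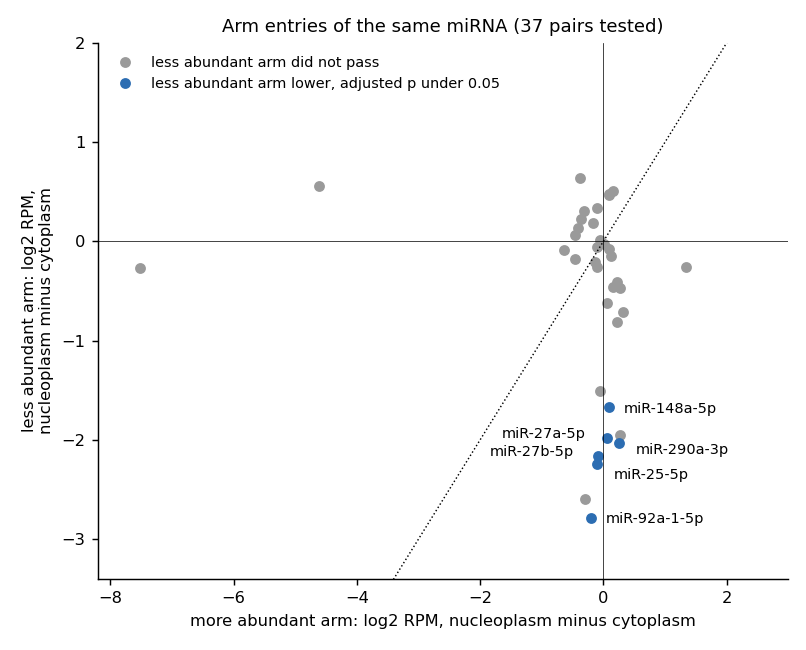
Log2 RPM, nucleoplasm minus cytoplasm, of the less abundant arm (vertical) against the abundant arm (horizontal) for 37 miRNAs with both arms tested; the dotted line is equality. The 6 labelled arms lie between -1.67 and -2.78, with the abundant arm between -0.20 and 0.26, and the isolated points at the left are miR-21a and miR-20b.

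The other 2 miRNA entries that rose have no named arm. miR-5099, at chr12:36816250-36816269, had 2219, 2171 and 1837 RPM in nucleoplasm and 163, 356 and 270 RPM in cytoplasm, 8.27-fold higher (log2 3.05, SE 0.34, adjusted p 0.000819), and kept its call under every alternative in which it was tested. In chromatin it was at 6665, 9421 and 8241 RPM. miR-6539, in an intron of Dock5, was at 249, 209 and 157 RPM against 49.6, 0 and 0, and at 1105, 3962 and 4323 RPM in chromatin (adjusted p 0.00356, and 0.0789 with values as listed). These 2 thus had the order of levels seen in most of the snoRNAs, chromatin above nucleoplasm above cytoplasm, unlike miR-182-5p and miR-22-3p, which were lowest in chromatin.

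Of 11 rRNA entries tested, 4 were lower in nucleoplasm (36.4%, beside 5.16% of all entries tested). The rRNA entries had a median log2 difference of -1.49. These are 5S rRNA genes and pieces of an 18S rRNA sequence, which are parts of the ribosome. n-R5s151 had 252, 426 and 841 RPM in nucleoplasm and 1396, 1645 and 1668 RPM in cytoplasm (log2 -1.80, SE 0.44, adjusted p 0.0283). n-R5s93 had 207, 426 and 804 RPM against 1257, 1510 and 1585 (log2 -1.80, SE 0.48, adjusted p 0.0411). In 10 of the 11 the fractions did not overlap, beside 55 of all 446 entries tested that were lower without overlap. None of the 11 had a positive difference. The 11 are not all separate observations: n-R5s151 and n-R5s93 are 89.9% identical, and some 18S pieces overlap on the genome. The calls themselves were weak. With values as listed none of the 4 passed (adjusted p 0.0529 for n-R5s151 to 0.131 for n-R5s28), and without nucleoplasm replicates 1 or 2 or without any cytoplasm library none passed either, while 5 rRNA entries passed without nucleoplasm replicate 3. That with the highest mean RPM, an 18S piece (Rn18s-rs5), had 1916, 3752 and 10947 RPM against 11808, 19844 and 16229 and did not pass (log2 -1.86, SE 0.58, adjusted p 0.0783). Nucleoplasm replicate 3 was the highest of its fraction in every rRNA entry named here.

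Few tRNA entries passed the test, and those fell. Of 193, 115 were tested, and the median log2 difference was -0.32. In nucleoplasm 8 fell (6.96%, beside 5.16% of all entries tested) and none rose (beside 11.9%). The difference was positive in 36 of the 115. The fractions did not overlap in 23 that were lower and 7 that were higher, beside 55 and 86 of all 446 entries tested. tRNA genes come in near-identical copies, and the 115 entries held 102 distinct sets of values. tRNA-Lys-CTT-3-3, with the highest mean RPM, had 3871, 6617 and 4439 RPM in nucleoplasm and 3941, 2959 and 2543 in cytoplasm (log2 0.65, SE 0.27, adjusted p 0.168). The 3 copies of tRNA-Arg-CCT fell together and had the same values, 17.3, 32.1 and 41.5 RPM against 147, 189 and 213 (log2 -2.09, SE 0.30, adjusted p 0.00321). All 3 nucleoplasm values lay under the floor, so the fitted size is a bound, and the call was kept under every alternative in which it was tested. tRNA-Lys-TTT-5-1 was at 102.9, 105.9 and 0 RPM against 473, 388 and 398 (log2 -2.43, SE 0.42, adjusted p 0.00679, and 0.249 with values as listed). tRNA-Leu-CAA-3-1 was at 227, 261 and 544 RPM against 972, 1008 and 1429 (log2 -1.81, SE 0.40, adjusted p 0.0194), but not called without cytoplasm replicate 2 (0.0865), cytoplasm replicate 3 (0.0608), nucleoplasm replicate 1 (0.0716) or nucleoplasm replicate 2 (0.0749).

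With the replicate number as a block, 15 tRNA entries were lower instead of 8. The 9 gained were 8 copies of tRNA-Leu-CAG and tRNA-Glu-CTC-1-7, while tRNA-Tyr-GTA-3-1 and tRNA-Tyr-GTA-4-1 had an adjusted p of 0.052. Without cytoplasm replicate 3, 13 tRNAs were lower; without cytoplasm replicate 2 or nucleoplasm replicate 2, 4; and without nucleoplasm replicate 3, 5. The 3 called tRNA-Tyr-GTA entries were listed at 0 in all nucleoplasm libraries and between 71.6 and 82.9 RPM in cytoplasm, not far above the floor. tRNA-Tyr-GTA-3-1 and tRNA-Tyr-GTA-4-1 had the same adjusted p in each of these fits and lost the call without cytoplasm replicates 1, 2 or 3 (0.0575, 0.0715 and 0.0598) or nucleoplasm replicates 2 or 3 (0.131 and 0.0884). tRNA-Tyr-GTA-3-2 lost it without cytoplasm replicates 1 or 2 (0.0575 and 0.0694) or nucleoplasm replicates 2 or 3 (0.119 and 0.0810), and with no filter on low values the 3 had adjusted p from 0.448 to 0.495. Among tRNA fragments, which are cut from either end of a tRNA, 14 of 34 were tested. Of these 2 rose (14.3%, beside 11.9% of all entries tested). tRNA-Tyr-GTA-6-1-tRF3, a fragment of the 3′ end, was at 88.4, 158.7 and 125.9 RPM in nucleoplasm and listed at 0 in cytoplasm (adjusted p 0.0137), and had 0.075 without cytoplasm replicate 2. tRNA-Ile-AAT-1-4-tRF5, of the 5′ end, was at 66.4, 100 and 97.4 RPM against 0 (adjusted p 0.0308), and 0.052 with the block and 0.075, 0.113, 0.0824, 0.112 and 0.0837 without cytoplasm replicates 1, 2 and 3 and nucleoplasm replicates 2 and 3. Of the 4 piRNA entries tested none passed, with a median of -0.34.

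Against the other cells, the difference between nucleoplasm and cytoplasm was tested as an interaction over 18 libraries with the same floor. Against mCtx, 89 of 275 entries tested differed (32.4%), with 78 relatively higher in the nucleoplasm of mESC and 11 lower, and a median interaction of 0.31. tRNAs stood out in number: 55 of 84 were relatively higher in mESC nucleoplasm and none lower. Their median log2 difference, nucleoplasm minus cytoplasm, was -0.19 in mESC and -1.59 in mCtx. Among the 52 tRNAs above the floor in all 12 libraries, 40 passed, and 45 of the 84 passed whichever library was left out.

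tRNA-Val-CAC-2-1 shows the pattern. In mESC nucleoplasm it was at 2169, 2632 and 1964 RPM, against 4429, 2746 and 2229 in the cytoplasm, while mCtx nucleoplasm had 1054, 908 and 939 RPM against 5412, 8869 and 7785. The fractions of mCtx were thus far apart and those of mESC overlapped (interaction 2.48, SE 0.38 on the log2 scale). tRNA-His-GTG-2-8 was at 1514, 1877 and 1574 RPM against 3467, 1515 and 1248 in mESC and 184.1, 223.3 and 268 against 2724, 1250 and 1267 in mCtx (2.69, SE 0.51). tRNA-Lys-CTT-3-3 was relatively higher in mESC nucleoplasm by 2.01 (SE 0.48), with 639, 651 and 551 RPM against 733, 2456 and 2155 in mCtx. These 3 entries were chosen after their values were seen, from different isotypes. Copies of a tRNA share reads and are not separate evidence.

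snoRNAs had a median log2 difference of 2.46 in mESC and 1.52 in mCtx over 28 tested. Of these, 9 were relatively higher in mESC and 2 lower, beside 78 and 11 of all 275 entries tested against mCtx. Gm22455 and Gm26224, at 73.7 to 97.5 and 82.6 to 111.5 RPM in mCtx nucleoplasm and 0 in its cytoplasm, had interactions of 2.61 and 2.42 (SE 0.35 and 0.34), which are bounded by the floor in mCtx. Snord52, higher in mCtx nucleoplasm at 2065, 2188 and 1429 RPM against 41.0, 39.1 and 30.2 in cytoplasm, was relatively lower in mESC, with an interaction of -1.46 (SE 0.47, adjusted p 0.0212, and up to 0.0611 when a library was left out). The direction of Snord52 and Gm26224 turned with values as listed, at 0.15 and -1.22. miR-5099, so uneven in mESC, was at 68.8, 72.6 and 43.2 RPM against 71.4, 33.4 and 36.1 in mCtx, with an interaction of 2.80 (SE 0.46, adjusted p 0.000149).

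**Figure D5:**
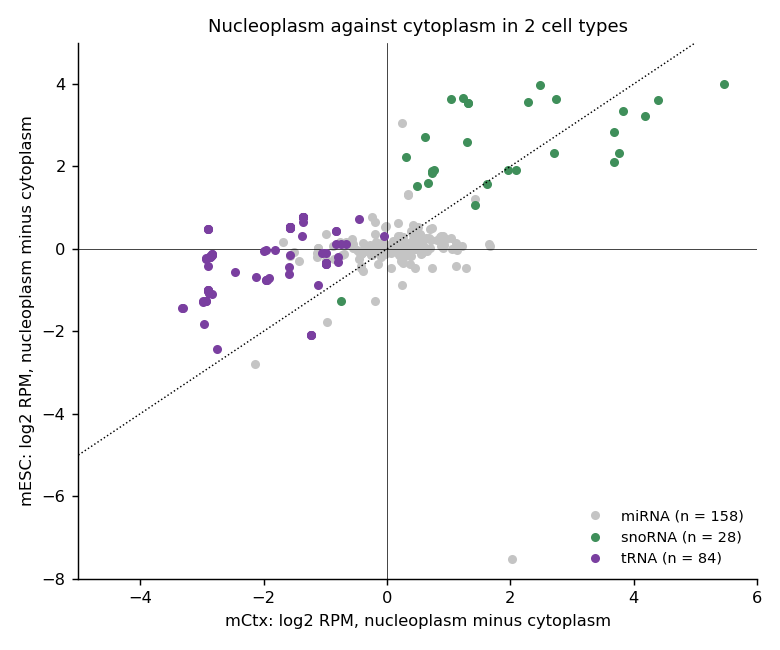
Log2 RPM, nucleoplasm minus cytoplasm, of the tRNA, snoRNA and miRNA entries tested in both cell types, in mESC (vertical) against mCtx (horizontal); the dotted line is equality. tRNAs lie above the line, near 0 in mESC with a median of -0.19 and near -1.59 in mCtx, and the isolated point at the bottom is miR-21a-5p.

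Against mNPC, 13 of 248 entries tested differed (5.24%), 8 relatively higher in mESC nucleoplasm and 5 lower. None of the 160 entries above the floor in all 12 libraries was among the 13, and 50 of the 248 had an unadjusted p under 0.05. In each of the 13 a whole fraction of at least 1 of the cells lay at or under the floor. The count was 35 without mESC cytoplasm replicate 1, 21 without mESC nucleoplasm replicate 1 or mCtx cytoplasm replicate 1, and 8 without any mNPC cytoplasm library. Gm23287, the U5-like RNA, was at 84.6, 105 and 90.5 RPM in mNPC nucleoplasm and listed at 0 in its cytoplasm, against the much higher levels in both mESC fractions given above. Rnu3a was at 110, 98.6 and 81.5 RPM in mNPC nucleoplasm and 0 in its cytoplasm. For tRNAs the medians were -0.19 in mESC and -0.65 in mNPC, with 3 of 81 relatively higher and 3 lower in mESC nucleoplasm.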

How the data were processed

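The authors deposited a single table of RPM values, scaled to library size, per the file headers. For the aligner, the scaling and the assignment of reads to overlapping or repeated entries, the method is not stated in the labels. Values under a common floor of 42.4 RPM were set to it. log2 values of 446 entries were fitted with limma 3.58.1 (trend and robust variance, R 4.3.3) over the 6 mESC nucleoplasm and cytoplasm libraries, without a pseudocount, and adjusted by Benjamini-Hochberg at 0.05. Interactions used 18 libraries. Class shares used exact two-sided permutation tests. The fit was also run on simulated data with independent noise in every library. The outcome is not given here, and no support is drawn from it.

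Replicate numbers come from the labels. Same-numbered libraries deviated together from their group means (r = 0.371, 0.182 and 0.311 across entries). Between unlike numbers r lay from -0.400 to 0.193, and the highest of these exceeded the value of replicate 2. Whether the numbers pair the libraries is thus uncertain. The fit reported leaves out any pairing, and a fit with the replicate block was an alternative. Named entries were the largest calls per class whose fractions did not overlap, the most abundant entries, the miR-290/295 cluster and the largest interactions; a few others are named beside them as examples. Members and lists were chosen with earlier results of these data known. Coordinates are GRCm38, and 285 of 288 Ensembl entries had the same coordinates in GENCODE M21. RefSeq mature sequences were matched for 395 of 453 arm entries.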

Additional observations from a re-analysis of the deposited data

Results flagged for a closer look

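The difference between nucleoplasm and cytoplasm in mESC departed from that in another cell type for 13 entries against mNPC and for 89 against mCtx, by tests of the interaction in limma.

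Against mNPC the largest interactions on the log2 scale were 2.20 for Gm23287, 2.12 for Rnu3a and 1.91 for Snord50b, relatively higher in mESC nucleoplasm, and -2.30 for Gm23212 and -1.85 for tRNA-Gly-GCC-1-1 and tRNA-Gly-GCC-1-3, relatively lower. All have a group listed at 0, so their sizes are set by the floor of 42.4 RPM. With values as listed the interaction of Gm23287 was -3.24, the opposite sign.

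Against mCtx they were 3.37 for tRNA-Gly-GCC-1-1, tRNA-Gly-GCC-1-2 and tRNA-Gly-GCC-1-3, 3 gene copies with the same values, and -9.55 for miR-21a-5p, -2.42 for Rnu12 and -1.61 for miR-138-5p. Rnu12 may share reads with its near copy Gm24525. In mESC nucleoplasm the miR-21a hairpin was listed and miR-21a-5p was at 0, so its interaction gives no measure of the mature miRNA. tRNA-Gly-GCC-1-3 in mESC had 615, 1565 and 1114 RPM against 1022, 803 and 489 in cytoplasm, and in mCtx 32.1, 37.02 and 72.0 RPM against 478, 288 and 394. miR-138-5p, a neuronal miRNA, lay above the floor in all 12 libraries, with 62.75, 78.7 and 45.2 RPM for nucleoplasm against 66.1, 67.9 and 44.1 in mESC, and 1057, 1192 and 1791 RPM against 465, 331 and 461 in mCtx. miR-21a-5p was listed at 0 in mCtx cytoplasm replicate 1, at 3129 and 2743 RPM in the other 2, and between 2473 and 3176 RPM in mCtx nucleoplasm; the adjusted p of its interaction was 0.0300 (0.0585 at the highest when a library was left out).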

How the results depend on the processing

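Of 59 named entries that passed, 18 kept their call under every alternative run for them, and no entry called both in the fit reported and in an alternative over the same entries changed sign. Among the 298 entries above the floor in all 6 libraries 13 passed, 10 higher and 3 lower in nucleoplasm. With all 27 libraries in the fit 117 passed, 51 of them lower. With hairpin and arms summed 14 were lower, and miR-21a-5p, miR-21a-3p and miR-148a-5p turned, to 0.77, 0.77 and 0.0599. With values as listed, all 27 libraries and a wider filter, an alternative chosen after seeing the data, 163 passed, 119 higher and 44 lower. Leaving out each library in turn gave 39 to 68 entries, 28 to 54 higher and 11 to 22 lower. With replicate 1 of both fractions left out, also chosen after seeing the data, 74 passed, 58 higher and 16 lower.

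The replicate block gave 83 calls, 52 higher and 31 lower, of which 71 were shared with the fit reported. Besides the tRNA and Gm23212 changes given above, it ended the calls of Snora23 and tRNA-Ile-AAT-1-4-tRF5 (adjusted p 0.052 each), added Snord96a, Snord83b and an 18S rRNA piece, and changed no other call.

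The miRNA share, 1.88 percentage points lower in nucleoplasm, was 1.29 points higher when taken outside snoRNAs. When single libraries were left out, it ranged from -4.06 to 0.218 points, the tRNA share from -2.84 to 1.92, and the tRNA fragment share from -0.0216 to 0.216. The count against mNPC was 21 with values as listed and 8 to 35 when single libraries were left out. With values as listed, interactions turned for Gm23287 against mNPC (-3.24), and against mCtx for Snord52 (0.15), Snord60 (-0.32), Gm26224 (-1.22) and tRNA-Tyr-GTA-6-1-tRF3 (2.64). The cause of these changes was not tested. The highest of the lowest listed values, that of cytoplasm replicate 2, set the floor of 42.4 RPM, and differences under it could not be seen; sequencing depth itself was not recovered.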
